A study of Mus musculus with 16 samples.

Results

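Rimeporide was compared with its vehicle in primary microglia of Grn knockout (KO) mice. The comparison holds 8 of the 16 libraries of the series, taken by their labels: 4 of KO microglia kept in 2 uM rimeporide and 4 of KO microglia kept in DMSO, each for 72 h. The other 8 libraries are wild-type (WT) microglia under the same 2 treatments, and they enter only as the shared estimate of the spread and as a comparison. All cells came from cortex and hippocampus of neonatal mice (P1-P3), which were dissociated and grown as mixed glia, and the microglia were shaken off these cultures, with no sort or gate named in the labels. RNA was measured by QuantSeq, which sequences tags near the 3' end of polyadenylated transcripts, with unique molecular identifiers. The series design gives 4 biological replicates per genotype, and the labels do not say whether a rimeporide and a DMSO library with the same number came from 1 culture, so a p-value measures the spread between libraries of a group. The labels name neither the strain nor the deleted part of Grn.

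Grn encodes progranulin, a secreted glycoprotein that is sorted to lysosomes and cut there into granulins, and its loss disturbs lysosomal lipid and protein breakdown and changes the state of microglia. Rimeporide inhibits sodium-proton exchange, by which cells expel protons from the cytosol. The V-ATPase, a proton pump of the lysosomal membrane, is the main source of the acid that lysosomal hydrolases need. The series title concerns lysosomal acidification in Grn knockout microglia, and the comparison asks which transcripts change when microglia without progranulin are given the drug.

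Grn set the genotypes apart in every library, with 13.8, 13.7, 24.2 and 18.4 CPM in KO rimeporide and 10.7, 15.2, 12.1 and 12.4 CPM in KO DMSO, against 1597 to 1827 CPM in the WT libraries (CPM, counts per 1000000 counts of the library after filtering and scaling). Values of 4 libraries are given in the order of their replicate numbers throughout. The residual Grn tags were higher in KO rimeporide (log2 fold change 0.53 ± 0.15, adjusted p = 0.019), although the groups overlapped. Total counts ran from 4018845 to 5966784 in KO rimeporide. In KO DMSO they were 4422263 in replicate 2 and 6659436 to 7929499 in replicates 1, 3 and 4, the 3 largest totals of all 16 libraries. RNA integrity was 9.9 or 10 in the 3 KO rimeporide libraries with a value and 10 in all 4 KO DMSO libraries. Processed pseudogenes, reverse-transcribed copies of mRNAs that mostly share the sequence of their parent genes, took 1.92% to 2.46% of the counts in KO rimeporide. They took 1.95% in KO DMSO replicate 2 and 1.11% to 1.39% in the other KO DMSO libraries. A processed pseudogene score, the mean centred log2 CPM of these genes, was 0.20, 0.35, 0.59 and 0.13 in KO rimeporide, against −0.77, 0.12, −0.54 and −1.01 in KO DMSO. The 13 libraries other than KO DMSO replicates 1, 3 and 4 lay between −0.14 and 0.59. The score and the depth thus set KO DMSO replicates 1, 3 and 4 apart from every other library of the series, and replicate 2 lay with the other libraries in both. In these bulk libraries, fewer cells of a type and less RNA per cell cannot be told apart.

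**Figure D1:**
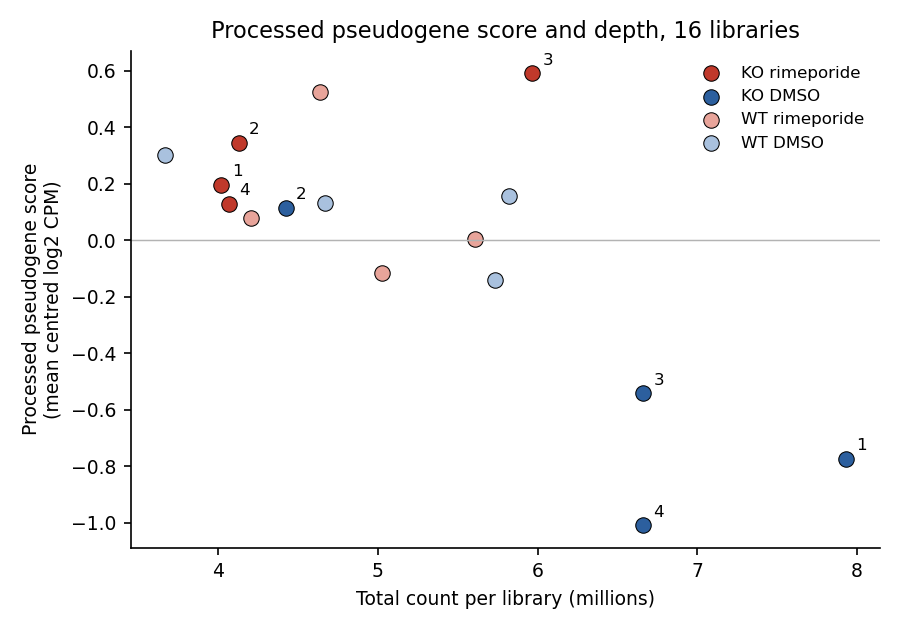
Processed pseudogene score (mean centred log2 CPM) against the total count per library in units of 1000000, for the 16 libraries, with KO libraries numbered by replicate. KO DMSO replicates 1, 3 and 4 lie at scores of −0.77, −0.54 and −1.01 and have the 3 largest totals, whereas KO DMSO replicate 2 (0.12) lies among the other libraries.

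Rimeporide was followed by many small differences in KO microglia. Of 12272 genes tested, 1813 passed at an adjusted p under 0.05 (14.8%). Among 10785 protein-coding genes, apart from symbols ending in -ps and digits, 493 were higher (4.57%) and 764 lower (7.08%) with rimeporide. Only 34 of the genes that rose and 21 of those that fell changed by at least 1 on the log2 scale, and the medians were 0.46 and −0.47. Over all protein-coding genes the median change was −0.037. Processed pseudogenes moved further, with 504 of 933 higher (54%), 1 lower and a median of 0.92. The split of protein-coding calls depended on the scaling: with TMM factors computed on protein-coding genes alone, 616 rose and 598 fell (50.7% higher, against 39.2% higher with factors from all genes). The CPM values of the KO groups did not overlap for 1265 protein-coding genes (11.7%), among them 300 of the 493 that rose and 422 of the 764 that fell.

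For most genes that changed, KO DMSO replicate 2 lay nearer to the rimeporide libraries than to its own group. Without it, 831 of 10941 protein-coding genes rose (7.6%) and 1346 fell (12.3%). Of the 1257 genes called with all libraries, 1232 were also called without it, 25 lost the call and 938 of the genes tested in both fits gained it, with no change of sign. The genes called without this library gave a measure of its place that its own values did not enter: on a scale with 0 at the mean of the other KO DMSO libraries and 1 at the mean of KO rimeporide, it had a median of 0.76 over 2170 genes and was closer to rimeporide for 75.3% of them. The same measure gave −0.24, 0.19 and −0.44 for KO DMSO replicates 1, 3 and 4, over 471, 996 and 393 genes. It gave 0.75, 0.95, 1.13 and 0.69 for the KO rimeporide libraries, so that the 0.76 of KO DMSO replicate 2 lay within their range. Each library was placed over its own genes. For all libraries but KO DMSO replicate 2, the choice of genes and the DMSO mean included that replicate, so the scales are not the same.

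**Figure D2:**
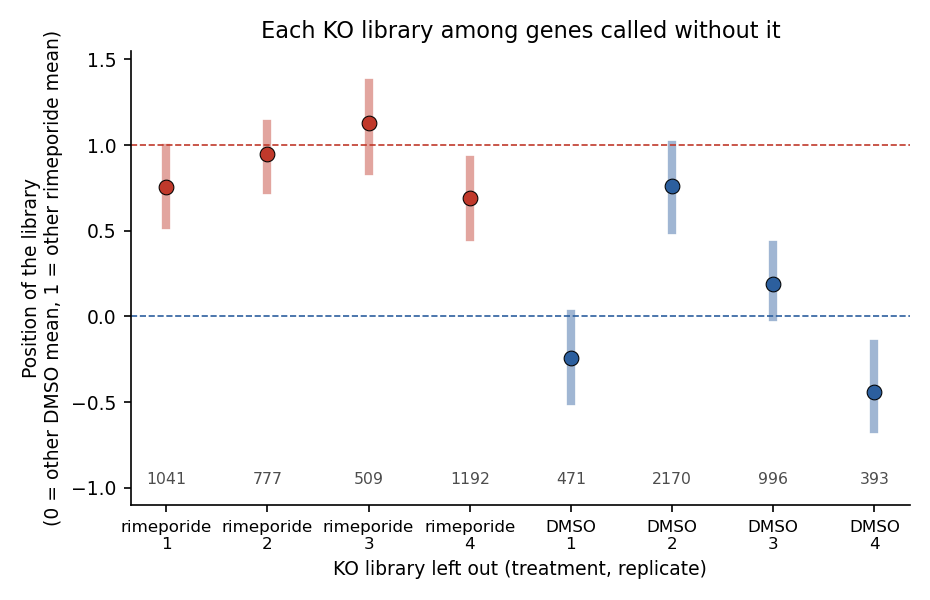
Position of each KO library (median as a point, interquartile range as a bar) over protein-coding genes called in the fit that left it out, with 0 at the mean of the other DMSO libraries and 1 at the mean of the other rimeporide libraries (the same-treatment mean excludes the library itself). Numbers above the axis give the genes, and KO DMSO replicate 2 (0.76) lies among the KO rimeporide libraries (0.69 to 1.13).

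Other libraries mattered as well. The number of protein-coding calls was 472 without KO DMSO replicate 1, 394 without KO DMSO replicate 4, 779 without KO rimeporide replicate 2 and 511 without KO rimeporide replicate 3. Of the 1257 calls, 328 passed without each of the 16 libraries left out in turn. Among 227 called genes that are members of the lists below or are named for their size, the number was 79. The libraries without which a call ended are given below for some genes only. A gene without such a statement need not be among the 79. With the pseudogene score as a covariate, 1 gene passed, Lrig1, which encodes a membrane inhibitor of growth factor receptors. Its values were 4.02, 8.84, 4.01 and 2.24 CPM in KO rimeporide, against 4.98, 63.02, 6.37 and 4.98 CPM in KO DMSO, so that this call rested on KO DMSO replicate 2 (log2 fold change −1.99 with all libraries, −3.96 with the covariate and −0.20 without replicate 2). Under the covariate, 444 of the 493 genes that rose and 612 of the 764 that fell had the same sign, with median changes of 0.16 and −0.093. All scores of KO rimeporide lay above all scores of KO DMSO, so a change with rimeporide and a change with the score cannot be told apart in these libraries. Every call described below other than Lrig1 was lost with the score as a covariate.

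**Figure D3:**
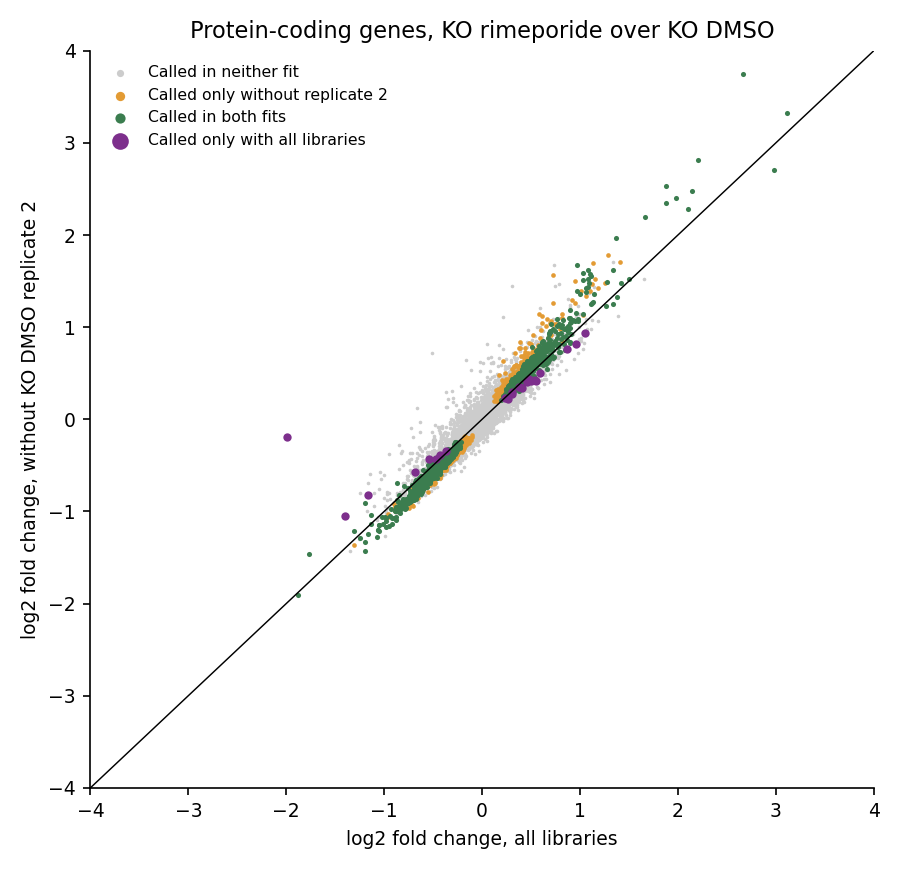
Log2 fold change of protein-coding genes, KO rimeporide over KO DMSO, in the fit of all libraries (x axis) and without KO DMSO replicate 2 (y axis), coloured by the fits in which a gene passed. Of the 1232 genes called in both fits, 1142 lie further from 0 without the library, and Lrig1 is the point at −1.99 and −0.20.

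The genes of largest change fell into those for which KO DMSO replicate 2 resembled the rimeporide libraries and those for which it did not. Among the 15 largest increases called with and without that library (log2 fold change 1.04 to 2.14), it was closer to rimeporide for 11 and closer to the other DMSO libraries for 4. Among the 15 largest decreases (−1.77 to −0.92) the numbers were 7 and 8. Being called with the library included was part of how these genes were chosen. Over all calls, the library was closer to rimeporide for 267 of the 493 genes that rose and for 522 of the 764 that fell.

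Several increases held against all 4 KO DMSO libraries. Srrd, which encodes an SRR1 domain protein, had 8.28, 10.6, 5.85 and 8.97 CPM in KO rimeporide, against 3.11, 3.18, 3.26 and 4.23 CPM in KO DMSO (log2 fold change 1.27 ± 0.26, adjusted p = 0.00472). Cc2d1a, a scaffold protein with C2 and coiled-coil domains, had 5.02, 8.10, 7.52 and 8.72 CPM in KO rimeporide, against 2.74, 3.18, 4.00 and 1.06 CPM in KO DMSO (log2 fold change 1.42 ± 0.33, adjusted p = 0.00757). Rubcn, whose product Rubicon restrains the maturation of autophagosomes and endosomes, had 18.6, 15.96, 17.7 and 20.9 CPM in KO rimeporide, against 10.1, 9.78, 10.2 and 10.7 CPM in KO DMSO (log2 fold change 0.84 ± 0.16, adjusted p = 0.00369). In these genes every rimeporide library lay above every DMSO library, and KO DMSO replicate 2 lay within or just below the range of its own group. With the pseudogene score as a covariate their changes were 1.26, 1.24 and 0.87. Plpp5, a lipid phosphate phosphatase gene (1.12 ± 0.24, adjusted p = 0.00512), and Phc1, a polycomb subunit gene (1.14 ± 0.29, adjusted p = 0.0123), also rose without overlap of the groups. The call of Phc1 ended when replicate 2 of KO rimeporide, or replicate 1 of KO DMSO was left out.

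Other large increases concerned genes whose transcript ends occur elsewhere in the transcriptome. Ugt1a1, Ugt1a2 (1.06 ± 0.24, adjusted p = 0.00727) and Ugt1a6a (1.06 ± 0.24, adjusted p = 0.00625), which encode glucuronosyltransferases and share their last exons, rose. Ugt1a1 had 21.3, 22.3, 23.7 and 21.7 CPM in KO rimeporide, against 7.10, 19.6, 10.2 and 6.64 CPM in KO DMSO (log2 fold change 1.10 ± 0.26, adjusted p = 0.00906). Dynlt1b, one of several near-identical copies of a dynein light chain gene, had 32.1, 32.4, 32.9 and 30.9 CPM in KO rimeporide, against 11.2, 29.8, 13.8 and 8.30 CPM in KO DMSO (log2 fold change 1.08 ± 0.24, adjusted p = 0.00668). The gamma protocadherins Pcdhga2 (1.11 ± 0.26, adjusted p = 0.00822) and Pcdhga9 (1.08 ± 0.32, adjusted p = 0.0245), adhesion proteins of a cluster with shared constant exons, rose as well, as did the histone gene H2ac7 (2.14 ± 0.42, adjusted p = 0.00384), whose DMSO libraries held 0.302 to 3.41 CPM. In Ugt1a1 and Dynlt1b, KO DMSO replicate 2 stood well above the other DMSO libraries, just under the rimeporide range. For each gene the share of 31-base words in the last 300 bases of its transcripts that also occur in another gene was counted in GENCODE M21. At least 50% were shared in 9 of the 15 largest increases and in 0 of the 15 largest decreases. Over all calls the number was 100 of the 493 genes that rose (20.3%) and 12 of the 764 that fell (1.57%), beside 463 of 10784 protein-coding genes with a value (4.29%). Counts of such genes are uncertain, since 3' tags that match several genes are divided between them by the authors' quantification. Genes with no shared word had a median change of −0.066 and those above 50% a median of 0.20.

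Lrpprc, which encodes a protein that stabilises mitochondrial mRNAs, was among the genes in which KO DMSO replicate 2 stood beside the rimeporide libraries. Its values were 164, 159, 165 and 149 CPM in KO rimeporide, against 451, 173, 354 and 354 CPM in KO DMSO (log2 fold change −1.07 ± 0.18, adjusted p = 0.00285). The other DMSO libraries lay at 354 CPM or above, and replicate 2 lay just above the rimeporide libraries and inside the WT range of 141 to 206 CPM. Adm, the gene of the vasodilator peptide adrenomedullin, had 3.51, 3.19, 4.35 and 6.23 CPM in KO rimeporide, against 12.7, 3.87, 10.95 and 11.3 CPM in KO DMSO (log2 fold change −1.20 ± 0.31, adjusted p = 0.0125), and here replicate 2 lay inside the rimeporide range. Dtx4, an E3 ubiquitin ligase of the Deltex family, had 68.02, 74.4, 66.2 and 74.99 CPM in KO rimeporide, against 159, 87.1, 127 and 160.4 CPM in KO DMSO (log2 fold change −0.92 ± 0.14, adjusted p = 0.00264). The groups did not overlap, but replicate 2 was again the nearest DMSO library. The call of Adm ended when replicate 1 of KO DMSO was left out.

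Among the other large decreases, Enpp4, an ectoenzyme that cleaves nucleotides, had 3.51, 7.36, 7.52 and 7.72 CPM in KO rimeporide, against 14.95, 17.97, 14.7 and 10.9 CPM in KO DMSO (log2 fold change −1.14 ± 0.29, adjusted p = 0.0131). Cd24a, a surface sialoglycoprotein, had 4.27, 5.40, 4.68 and 3.24 CPM in KO rimeporide, against 8.60, 7.28, 9.92 and 9.20 CPM in KO DMSO (log2 fold change −0.99 ± 0.24, adjusted p = 0.00968). C1ra, a protease of the first complement component, had 4.52, 3.93, 3.51 and 2.99 CPM in KO rimeporide, against 11.7, 5.91, 5.92 and 6.94 CPM in KO DMSO (log2 fold change −1.05 ± 0.29, adjusted p = 0.0192). All 3 genes fell without overlap of the groups, and in Enpp4 KO DMSO replicate 2 held the highest value of all. With the score as a covariate the changes were −1.18, −0.72 and −0.42. The call of C1ra ended when replicate 3 of KO rimeporide, or replicate 1 of KO DMSO was left out.

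Genes that lost or gained their call without KO DMSO replicate 2 were described by their largest changes. Among those that lost it, Kdm1b, a histone demethylase, had 18.1, 21.8, 18.6 and 22.7 CPM in KO rimeporide, against 13.7, 10.01, 14.4 and 16.9 CPM in KO DMSO (log2 fold change 0.54 ± 0.17, adjusted p = 0.0337), and 0.43 without the library (adjusted p = 0.0635). Epsti1, an interferon-response gene outside the list described below, had 41.7, 44.4, 52.6 and 43.4 CPM in KO rimeporide, against 65.4, 69.4, 58.03 and 61.3 CPM in KO DMSO (log2 fold change −0.47 ± 0.16, adjusted p = 0.0447), and −0.43 without it (adjusted p = 0.0552). In both genes replicate 2 was the DMSO library furthest from rimeporide. Among those that gained it, Rims1, which encodes a presynaptic scaffold, had 7.78, 7.86, 7.02 and 7.72 CPM in KO rimeporide, against 3.11, 10.01, 3.26 and 3.02 CPM in KO DMSO (log2 fold change 0.72 ± 0.34, adjusted p = 0.154), and 1.26 without the library (adjusted p = 0.00189). Bpgm, an enzyme of a glycolytic side path, had 4.77, 3.68, 6.52 and 4.24 CPM in KO rimeporide, against 10.1, 4.78, 6.81 and 10.1 CPM in KO DMSO (log2 fold change −0.72 ± 0.25, adjusted p = 0.0513), and −0.88 without it (adjusted p = 0.00724). In Rims1 replicate 2 lay above all other KO libraries, and in Bpgm it lay within the rimeporide range. The call of Kdm1b ended when replicate 2, 3 or 4 of KO rimeporide, or replicate 1, 2 or 3 of KO DMSO was left out. The call of Epsti1 ended when replicate 1, 2, 3 or 4 of KO rimeporide, or replicate 1, 2, 3 or 4 of KO DMSO was left out.

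**Figure D4:**
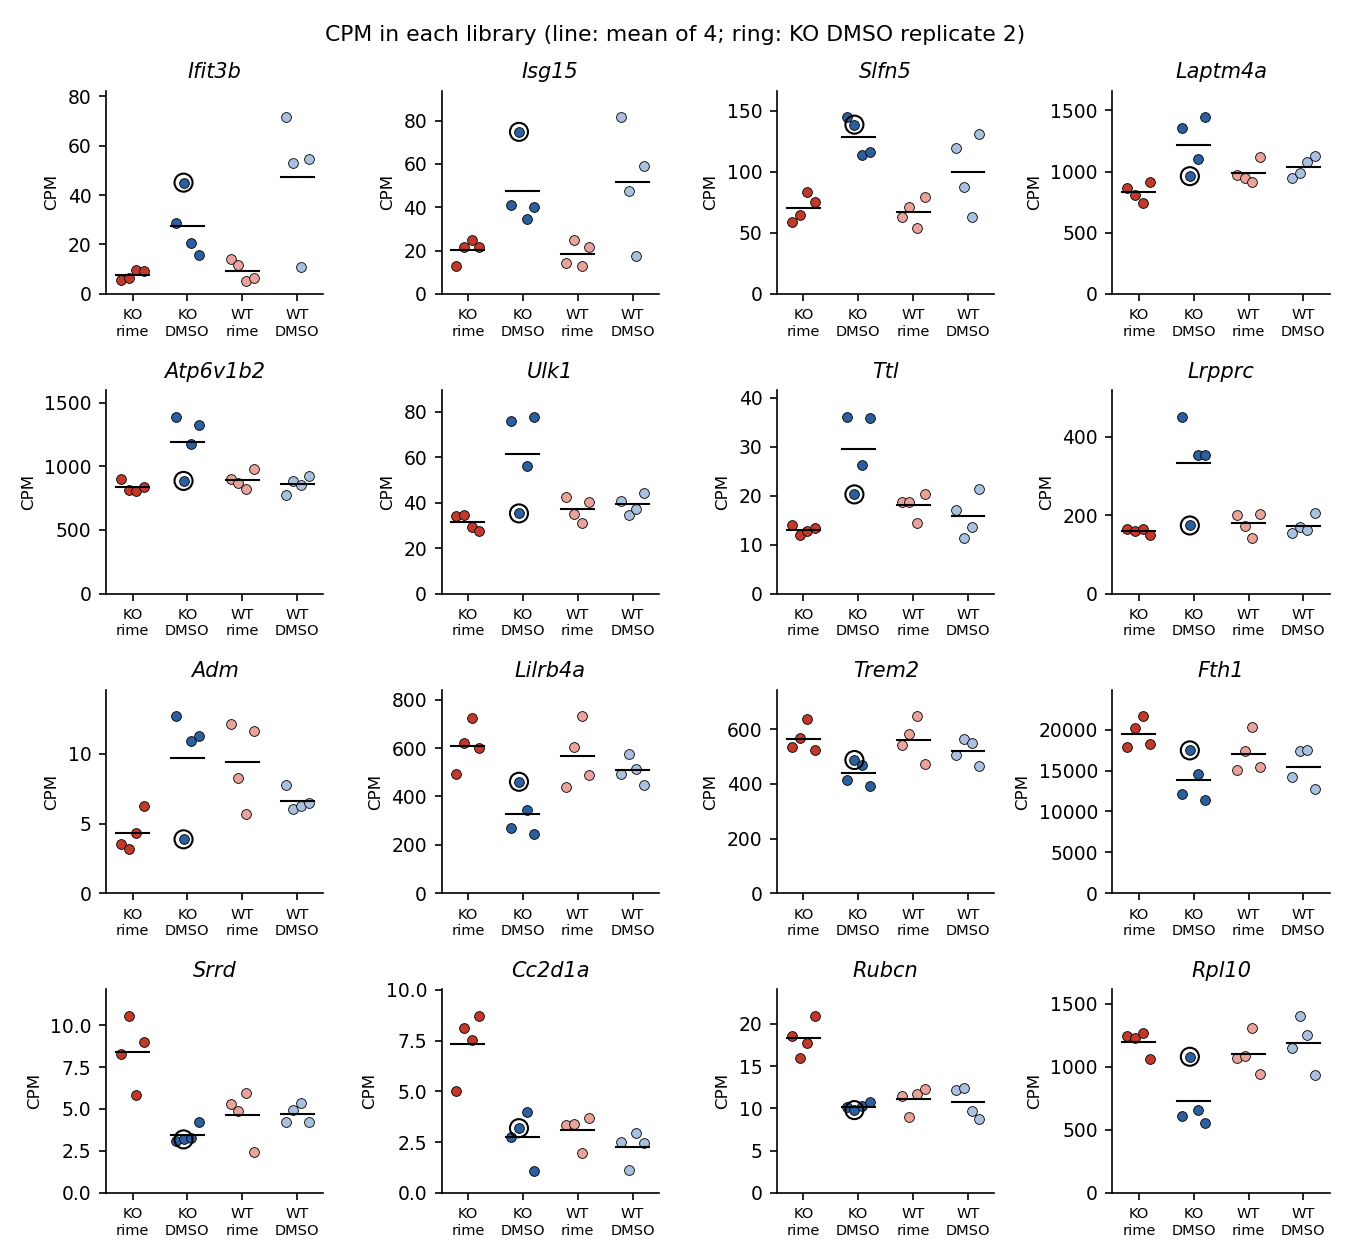
CPM of 16 genes in each library of KO rimeporide, KO DMSO, WT rimeporide and WT DMSO, with a line at the mean of 4 libraries and a ring around KO DMSO replicate 2. In Lrpprc, Ulk1, Adm and Rpl10 the ringed library lies beside KO rimeporide, and in Ifit3b, Isg15, Slfn5, Srrd and Rubcn it does not.

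Counts of called genes in a list are read against the shares over all protein-coding genes, 4.57% higher and 7.08% lower with rimeporide, and in most lists they rest on few genes. Of 7 sodium-proton exchangers and partners tested none passed by edgeR, where 2 had an unadjusted p under 0.05, and DESeq2 called 1 and limma voom 0. Without KO DMSO replicate 2, 2 of the 7 passed, both lower (12.3% of all protein-coding genes were lower in that fit), among them the partner gene Chp1 (log2 fold change −0.32, adjusted p = 0.0371). Of 14 other regulators of pH and bicarbonate 1 rose (7.14%) and 2 fell (14.3%). Slc4a7, a sodium bicarbonate cotransporter that brings base into the cytosol, had 113, 128, 93.6 and 109 CPM in KO rimeporide, against 78.99, 85.5, 80.4 and 69.6 CPM in KO DMSO (log2 fold change 0.49 ± 0.13, adjusted p = 0.0153), with every rimeporide library above every DMSO library. Atp1b3, a beta subunit of the sodium pump, was among those that fell (−0.33 ± 0.11, adjusted p = 0.045). The call of Slc4a7 ended when replicate 2 of KO rimeporide, or replicate 4 of KO DMSO was left out.

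Subunits of the proton pump that passed were lower with rimeporide. Of 11 genes of the membrane sector (V0) and its accessory proteins 1 fell (9.09%), and of 9 genes of the catalytic sector (V1) 2 fell (22.2%), with medians of −0.10 and −0.097 beside −0.037 over all protein-coding genes. Atp6v1b2, a subunit of the ATP-hydrolysing head, had 897, 814, 809 and 839 CPM in KO rimeporide, against 1390.4, 885, 1177 and 1327 CPM in KO DMSO (log2 fold change −0.51 ± 0.10, adjusted p = 0.00396). Atp6ap2, an accessory subunit needed for pump assembly, had 699, 659, 601 and 734 CPM in KO rimeporide, against 1044, 721, 867 and 1045 CPM in KO DMSO (log2 fold change −0.45 ± 0.10, adjusted p = 0.00747). The stalk subunit Atp6v1g1 (−0.31 ± 0.083, adjusted p = 0.0165) also fell. In all 3 genes the groups overlapped through KO DMSO replicate 2 alone, which lay within the rimeporide range. With the score as a covariate the changes of Atp6v1b2 and Atp6ap2 were −0.093 and 0.0033.

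Lysosomal genes that passed were mostly lower with rimeporide. Of 28 lysosomal membrane proteins 6 fell (21.4%) and 1 rose (3.57%). Of 22 genes of glycan breakdown or of the mannose 6-phosphate tag of lysosomal proteins 5 fell (22.7%). Gnptab and Nagpa, which build that tag, were among these 5. Of 23 genes of lipid and sphingolipid breakdown 3 fell (13%) and 1 rose (4.35%), and of 17 proteases 1 fell (5.88%) and 1 rose (5.88%). The list medians were −0.14, −0.044, −0.15 and 0.033, beside −0.037 over all protein-coding genes, and −0.047, −0.0027, −0.042 and 0.012 with the score as a covariate. Laptm4a, a membrane protein of late endosomes and lysosomes, had 867, 811, 745 and 914 CPM in KO rimeporide, against 1358, 962, 1102 and 1445 CPM in KO DMSO (log2 fold change −0.55 ± 0.10, adjusted p = 0.00377). Mfsd1, a lysosomal dipeptide transporter, had 536, 496, 447 and 504 CPM in KO rimeporide, against 823, 552, 697 and 879 CPM in KO DMSO (log2 fold change −0.57 ± 0.12, adjusted p = 0.00472). In both genes KO DMSO replicate 2 was the lowest DMSO library and lay just above the rimeporide range. The cysteine transporter Mfsd12 (−0.46 ± 0.11, adjusted p = 0.00721), the major membrane glycoproteins Lamp1 (−0.26 ± 0.085, adjusted p = 0.0432) and Lamp2 (−0.29 ± 0.088, adjusted p = 0.031), and Laptm5 (−0.25 ± 0.076, adjusted p = 0.0291) fell, whereas the ubiquitin ligase Rnf13 rose (0.29 ± 0.072, adjusted p = 0.0105). Lamp1, Lamp2 and Laptm5 each lost the call without replicate 2 or 3 of KO rimeporide, or replicate 1 or 4 of KO DMSO.

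Enzymes and receptors of the lysosome passed in both directions. Scarb2, the receptor that carries glucocerebrosidase to lysosomes, had 265, 260.2, 218 and 252 CPM in KO rimeporide, against 378, 274, 330.2 and 412 CPM in KO DMSO (log2 fold change −0.49 ± 0.099, adjusted p = 0.00415). Hexa, the alpha subunit of beta-hexosaminidase, had 513, 521, 523 and 489 CPM in KO rimeporide, against 757, 551, 680.5 and 711 CPM in KO DMSO (log2 fold change −0.40 ± 0.080, adjusted p = 0.00396). Both fell without overlap, again with KO DMSO replicate 2 next to the rimeporide libraries. The sialidase Neu1 (−0.40 ± 0.12, adjusted p = 0.0225), the sulfatases Galns (−0.46 ± 0.11, adjusted p = 0.00749), Ids (−0.37 ± 0.10, adjusted p = 0.0175) and Sgsh (−0.39 ± 0.12, adjusted p = 0.0256), and both enzymes that build the mannose 6-phosphate tag of lysosomal proteins, Gnptab (−0.41 ± 0.12, adjusted p = 0.0214) and Nagpa (−0.43 ± 0.14, adjusted p = 0.0445), also fell. Acid ceramidase, encoded by Asah1, rose, with 219.6, 209, 207 and 196 CPM in KO rimeporide, against 155, 174, 183 and 168 CPM in KO DMSO (log2 fold change 0.29 ± 0.081, adjusted p = 0.0179). The dipeptidyl peptidase gene Dpp7 rose (0.40 ± 0.10, adjusted p = 0.0106) and the carboxypeptidase gene Scpep1 fell (−0.32 ± 0.098, adjusted p = 0.0326). Of 16 lysosomal ion channels 1 rose, the chloride-proton exchanger Clcn3 (0.31 ± 0.095, adjusted p = 0.0327). The call of Asah1 ended when replicate 1 or 3 of KO rimeporide, or replicate 1 or 4 of KO DMSO was left out.

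Among 36 genes of the TFEB family and autophagy 2 rose (5.56%) and 4 fell (11.1%), shares close to those over all protein-coding genes. TFEB and its relatives are transcription factors that raise lysosomal and autophagy genes. Ulk1, the kinase that starts autophagosome formation, had 34.1, 34.4, 29.2 and 27.4 CPM in KO rimeporide, against 75.9, 35.3, 55.95 and 77.9 CPM in KO DMSO (log2 fold change −0.98 ± 0.18, adjusted p = 0.00369). Replicates 1, 3 and 4 of KO DMSO lay between 55.95 and 77.9 CPM, while replicate 2 lay just above the rimeporide libraries and within the WT range of 30.97 to 44.5 CPM. The conjugation factor Atg12 (−0.40 ± 0.10, adjusted p = 0.0112), the autophagosome protein Gabarapl2 (−0.40 ± 0.12, adjusted p = 0.0233) and the folliculin partner Fnip1 (−0.26 ± 0.084, adjusted p = 0.0409) fell as well. Besides Rubcn, the TFEB relative Mitf rose (0.27 ± 0.087, adjusted p = 0.0435). Of 23 regulators of mTORC1, the growth kinase held at lysosomes, 1 rose (4.35%) and 3 fell (13%): Tsc2, part of its inhibitor complex, rose (0.69 ± 0.21, adjusted p = 0.0276), and the GTPase gene Rraga (−0.43 ± 0.11, adjusted p = 0.0131), the subunit gene Mlst8 (−0.50 ± 0.15, adjusted p = 0.0298) and the sestrin gene Sesn3 (−0.56 ± 0.18, adjusted p = 0.0413) fell.

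**Figure D5:**
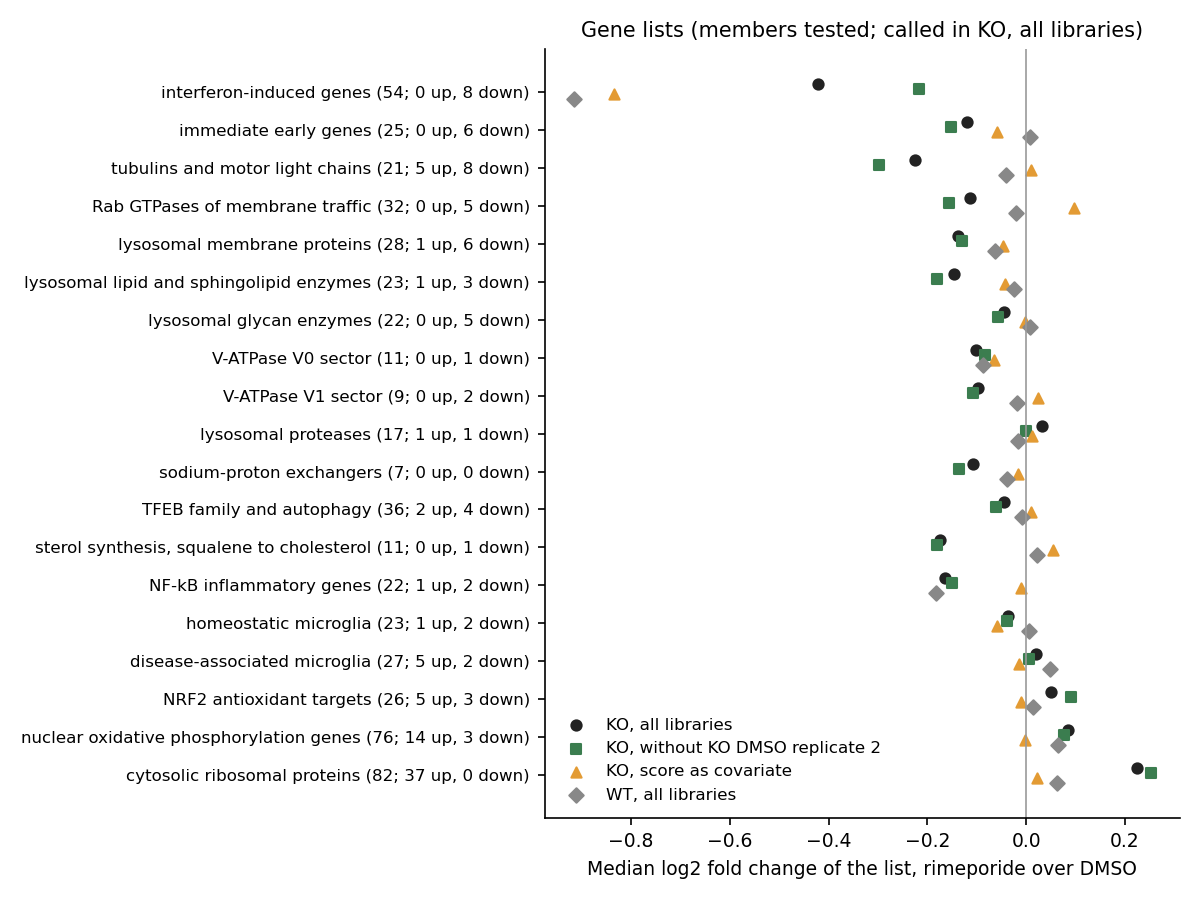
Median log2 fold change, rimeporide over DMSO, of 19 gene lists in KO with all libraries, in KO without KO DMSO replicate 2, in KO with that score as a covariate, and in WT. Interferon-induced genes have the lowest medians in KO (−0.42) and WT (−0.92), and cytosolic ribosomal proteins had a median of 0.22 in KO and 0.022 with the covariate.

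The interferon-induced genes that passed were all lower with rimeporide. These antiviral genes are switched on by type I interferon through a transcription factor complex that contains IRF9. Of 54 tested, 8 fell (14.8%) and none rose, 46 had a negative change, and the median was −0.42. The 8 were the RNA-binding effectors Ifit2, Ifit3 and Ifit3b, the ubiquitin-like modifier Isg15 with its ligase Trim25, and Slfn5, Sp100 and Trim30a, which act on viral or nuclear DNA and RNA or on signalling. Ifit3b had 5.52, 6.38, 9.86 and 9.47 CPM in KO rimeporide, against 28.9, 45.04, 20.6 and 15.7 CPM in KO DMSO (log2 fold change −1.77 ± 0.43, adjusted p = 0.00955). Isg15 had 12.8, 21.8, 25.1 and 21.7 CPM in KO rimeporide, against 41.2, 74.8, 34.6 and 39.99 CPM in KO DMSO (log2 fold change −1.20 ± 0.33, adjusted p = 0.0168). Slfn5 had 59.2, 65.1, 83.9 and 74.99 CPM in KO rimeporide, against 145, 139, 114 and 116 CPM in KO DMSO (log2 fold change −0.85 ± 0.17, adjusted p = 0.00396). In these 3 genes every rimeporide library lay below every DMSO library, and in Ifit3b and Isg15 KO DMSO replicate 2 was the highest of all 8. The call of Isg15 ended when replicate 1 of KO rimeporide was left out.

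In this list KO DMSO replicate 2 lay away from the rimeporide libraries. It had the highest value of the 4 DMSO libraries in 47 of the 54 genes. The summed level of the list was 1802 to 2487 CPM in KO rimeporide, against 3795 CPM in KO DMSO replicate 2 and 2200 to 2766 CPM in the other KO DMSO libraries, so the sums overlapped. Without replicate 2 the number that fell was 5 and the median −0.22, and Ifit3 (−1.40 ± 0.42, adjusted p = 0.0259), Ifit2 (−1.17 ± 0.38, adjusted p = 0.0408) and Sp100 (−0.54 ± 0.18, adjusted p = 0.0437) no longer passed (adjusted p = 0.0604, 0.104 and 0.0841). The call of Ifit3 ended when replicate 1, 2 or 4 of KO rimeporide, or replicate 1 or 2 of KO DMSO was left out. The call of Ifit2 ended when replicate 1, 2 or 3 of KO rimeporide, or replicate 1, 2 or 4 of KO DMSO was left out. The call of Sp100 ended when replicate 1, 2 or 4 of KO rimeporide, or replicate 1, 2 or 4 of KO DMSO was left out. Across the other fits, the one with the covariate left out, 3 to 23 of the genes fell. With the covariate none passed, and the median was −0.83. In WT the median was −0.92, and 53 of the 54 genes had a negative change, although none passed. Ifit3b had 13.9, 11.9, 5.27 and 6.53 CPM in WT rimeporide, against 71.6, 52.9, 10.9 and 54.6 CPM in WT DMSO (log2 fold change −2.31 ± 0.62, adjusted p = 0.101), with WT DMSO replicate 3 at the level of the rimeporide libraries. No gene of the list passed the test of a difference between the genotypes, which does not show that the responses were alike.

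Promoters of 4 of the 8 genes that fell are shown, chosen among the 5 that hold a match of an element known from genes of this kind; the windows of Ifit2, Trim25 and Sp100 hold none. The core of the element, searched as GAAA, any 2 bases and GAAA again, is bound by IRF9 and other interferon regulatory factors. The windows run from 250 bases before to 50 after the transcript start (RefSeq, GRCm38.p6), are written 5′ to 3′ on the strand of the gene, and carry every match of the motif on either strand in capitals.
Ifit3b, chr19:34607707-34608006, plus strand: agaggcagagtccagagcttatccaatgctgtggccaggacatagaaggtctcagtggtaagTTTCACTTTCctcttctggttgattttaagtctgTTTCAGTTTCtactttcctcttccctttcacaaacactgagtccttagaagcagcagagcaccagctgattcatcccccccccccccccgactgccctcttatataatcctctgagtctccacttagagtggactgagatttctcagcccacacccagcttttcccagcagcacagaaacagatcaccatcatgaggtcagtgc
Ifit3, chr19:34583279-34583578, plus strand: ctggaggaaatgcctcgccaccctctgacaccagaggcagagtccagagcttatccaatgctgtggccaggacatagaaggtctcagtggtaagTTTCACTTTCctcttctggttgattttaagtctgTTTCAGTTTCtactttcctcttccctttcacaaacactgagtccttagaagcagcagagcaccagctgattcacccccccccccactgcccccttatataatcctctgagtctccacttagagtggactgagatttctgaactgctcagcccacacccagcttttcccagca
Isg15, chr4:156200769-156201068, minus strand: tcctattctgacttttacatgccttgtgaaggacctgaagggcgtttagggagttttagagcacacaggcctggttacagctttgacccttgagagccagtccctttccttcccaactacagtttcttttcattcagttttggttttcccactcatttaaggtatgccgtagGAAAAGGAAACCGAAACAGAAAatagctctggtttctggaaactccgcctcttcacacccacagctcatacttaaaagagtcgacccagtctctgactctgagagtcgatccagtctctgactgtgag
Slfn5, chr11:82951852-82952151, plus strand: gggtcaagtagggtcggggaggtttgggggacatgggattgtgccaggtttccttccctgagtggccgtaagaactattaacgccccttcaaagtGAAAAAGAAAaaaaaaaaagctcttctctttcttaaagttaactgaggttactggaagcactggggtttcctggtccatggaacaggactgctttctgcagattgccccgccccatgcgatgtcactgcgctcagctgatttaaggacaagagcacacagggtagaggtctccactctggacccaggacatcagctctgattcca
The Ifit3 and Ifit3b windows hold the same pair of matches, on the opposite strand, and Isg15 holds 3 overlapping matches. Of the 8 genes that fell, 5 had a match (62.5%), as had 20 of 34 genes of the list with a window that did not pass (58.8%), a similar share. It occurred in 4.03% of tested protein-coding genes with a window and in 3.44% of all 32851 windows. A match is a description of the sequence and does not show that a factor binds it.

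Genes of microglial states passed in both directions. Of 27 genes of disease-associated microglia, the lipid-handling state that microglia take near damage, 5 rose (18.5%) and 2 fell (7.41%), with a median of 0.020. Without KO DMSO replicate 2, 6 rose and 3 fell. Across the other fits, the one with the covariate left out, 1 to 7 rose and 0 to 3 fell. Lilrb4a, an inhibitory receptor, had 493, 621, 726 and 601 CPM in KO rimeporide, against 270.0, 461, 342 and 243 CPM in KO DMSO (log2 fold change 0.90 ± 0.16, adjusted p = 0.00369). Trem2, the lipid receptor needed for the state, had 534, 567, 637 and 524 CPM in KO rimeporide, against 413, 488, 471 and 391 CPM in KO DMSO (log2 fold change 0.36 ± 0.097, adjusted p = 0.0153). The groups did not overlap in either gene, and KO DMSO replicate 2 was the highest DMSO library in both. Lilrb4a shares 73.6% of its end words with other genes, so its counts are uncertain. Tyrobp, the adaptor of Trem2 (0.29 ± 0.094, adjusted p = 0.0408), the secreted phosphoprotein gene Spp1 (0.31 ± 0.095, adjusted p = 0.0314) and Fth1 rose too, and Cd9 (−0.30 ± 0.097, adjusted p = 0.0395) and Lpl (−0.23 ± 0.074, adjusted p = 0.0445) fell. With the covariate the changes of Trem2 and Tyrobp were −0.0038 and −0.046. Of 23 homeostatic genes 1 rose, the transcription factor gene Mef2c (0.38 ± 0.11, adjusted p = 0.0228), and 2 fell (8.7%), Jun (−0.43 ± 0.098, adjusted p = 0.00733) and the TGF-beta mediator gene Smad3 (−0.42 ± 0.13, adjusted p = 0.0385). The call of Trem2 ended when replicate 3 of KO rimeporide, or replicate 1 or 4 of KO DMSO was left out. Those of Spp1 and Tyrobp ended without replicate 2, 3 or 4 of KO rimeporide, or replicate 1, 3 or 4 of KO DMSO. Tyrobp also lost it without replicate 2 of WT DMSO or of WT rimeporide. Cd9 lost its call without any single KO library other than KO DMSO replicate 2.

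Complement and Fc receptor genes went both ways, with 2 of 17 higher (11.8%) and 2 lower (11.8%). C1qa, a chain of the C1q recognition complex, had 326, 348, 357 and 324 CPM in KO rimeporide, against 440.2, 389, 436 and 446 CPM in KO DMSO (log2 fold change −0.34 ± 0.085, adjusted p = 0.0115). It fell without overlap. The integrin gene Itgb2 was among those that rose (0.27 ± 0.089, adjusted p = 0.0447), and the high-affinity Fc receptor gene Fcgr1 fell (−0.57 ± 0.17, adjusted p = 0.0299). Of 22 NF-kB inflammatory genes 1 rose, Nfkb1 (0.36 ± 0.12, adjusted p = 0.0499), and 2 fell, the antagonist gene Il1rn (−0.46 ± 0.13, adjusted p = 0.019) and Bcl2a1b (−0.26 ± 0.088, adjusted p = 0.0459). Bcl2a1b shares 88.5% of its end words with other genes, so its counts are uncertain, and its groups overlapped. Its call ended without any single KO library other than KO DMSO replicate 2, and without WT DMSO replicate 3. None of 17 chemokine genes passed by edgeR with all libraries (1 at an unadjusted p under 0.05, 0 by DESeq2 and 1 by limma voom). Without KO DMSO replicate 2, 1 chemokine gene fell. Of 19 antigen presentation genes 1 fell, H2-DMb1, a class II peptide editor, with 11.04, 11.05, 14.4 and 13.95 CPM in KO rimeporide, against 27.2, 17.5, 18.5 and 28.2 CPM in KO DMSO (log2 fold change −0.86 ± 0.18, adjusted p = 0.00512). Among 11 genes of border macrophages and alternative activation, the scavenger receptor gene Stab1 rose (0.37 ± 0.086, adjusted p = 0.00761), and Il4ra (−0.79 ± 0.16, adjusted p = 0.00466) and Msr1 (−0.28 ± 0.089, adjusted p = 0.0408) fell.

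Immediate early genes, which respond to stimulation within minutes to hours, fell in 6 of 25 cases (24%) and rose in none, with a median of −0.12. Fosl2, a subunit of the AP-1 transcription factor, had 28.1, 27.7, 25.9 and 28.7 CPM in KO rimeporide, against 39.9, 35.03, 40.6 and 43.9 CPM in KO DMSO (log2 fold change −0.54 ± 0.11, adjusted p = 0.0052). Jun, another AP-1 subunit, had 172, 156, 160.4 and 184 CPM in KO rimeporide, against 241, 179.9, 216 and 265 CPM in KO DMSO (log2 fold change −0.43 ± 0.098, adjusted p = 0.00733). The groups were apart in Fosl2 and overlapped in Jun through KO DMSO replicate 2. Ier3 (−0.78 ± 0.19, adjusted p = 0.00906), Ier5 (−0.65 ± 0.14, adjusted p = 0.00587), Klf6 (−0.43 ± 0.11, adjusted p = 0.0133) and the mRNA decay factor gene Zfp36 (−0.27 ± 0.092, adjusted p = 0.0478) also fell, and the list median was −0.059 with the covariate.

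None of 10 genes of the mevalonate arm of sterol synthesis passed by edgeR with all libraries (1 at an unadjusted p under 0.05, 1 by DESeq2 and 1 by limma voom). Without KO DMSO replicate 2, 1 gene of this arm fell. Of 11 genes from squalene to cholesterol 1 fell (9.09%), Cyp51 (−0.50 ± 0.13, adjusted p = 0.0138). Of 13 genes of SREBP control and lipoprotein uptake Lrp1 (−0.28 ± 0.091, adjusted p = 0.0425) and Tmem97 (−0.49 ± 0.14, adjusted p = 0.0209) fell, and of 16 LXR targets Arl4c fell (−0.61 ± 0.12, adjusted p = 0.00377). Of 22 genes of lipid droplets and lipases 1 rose (4.55%) and 3 fell (13.6%). Hilpda, an inhibitor of triglyceride lipase on lipid droplets, had 137, 142, 139 and 151 CPM in KO rimeporide, against 271, 165, 231 and 305 CPM in KO DMSO (log2 fold change −0.78 ± 0.14, adjusted p = 0.00369). Fabp3, a cytosolic fatty acid carrier, had 35.4, 33.4, 28.7 and 33.9 CPM in KO rimeporide, against 58.8, 40.04, 54.6 and 64.6 CPM in KO DMSO (log2 fold change −0.74 ± 0.14, adjusted p = 0.00369). Cd36, a fatty acid and lipoprotein receptor, had 4012, 4195, 4363 and 4319.9 CPM in KO rimeporide, against 2895, 3768, 3675 and 3107 CPM in KO DMSO (log2 fold change 0.33 ± 0.093, adjusted p = 0.0196). The first pair fell and Cd36 rose, each without overlap, and in all 3 genes KO DMSO replicate 2 was the DMSO library nearest to rimeporide. Lpl, the lipase that frees fatty acids from lipoproteins, had 4022, 4146, 4099 and 4518 CPM in KO rimeporide, against 5186, 4066, 5188 and 5177 CPM in KO DMSO (log2 fold change −0.23 ± 0.074, adjusted p = 0.0445), where replicates 1, 3 and 4 of KO DMSO lay between 5177 and 5188 CPM and replicate 2 lay among the rimeporide libraries. Of 19 genes of fatty acid synthesis and desaturation, Elovl5 (−0.38 ± 0.10, adjusted p = 0.0162) and Fads2 (−0.62 ± 0.21, adjusted p = 0.0476) fell. The call of Cd36 ended when replicate 3 of KO rimeporide, or replicate 1 or 4 of KO DMSO was left out. The call of Lpl ended when replicate 1, 2 or 3 of KO rimeporide, or replicate 1, 3 or 4 of KO DMSO, or replicate 1 of WT rimeporide, or replicate 3 of WT DMSO was left out.

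Iron and antioxidant genes passed in both directions. Of 16 iron genes 3 rose (18.8%) and 1 fell (6.25%), and of 26 NRF2 targets 5 rose (19.2%) and 3 fell (11.5%), with members in common. Across the other fits, the one with the covariate left out, 0 to 3 iron genes rose and 0 to 2 fell. For NRF2 targets 0 to 7 rose and 1 to 4 fell. Fth1, the heavy chain of ferritin, had 17873, 20237, 21638 and 18191 CPM in KO rimeporide, against 12069, 17466, 14611 and 11455 CPM in KO DMSO (log2 fold change 0.49 ± 0.12, adjusted p = 0.0103). The light chain gene Ftl1 (0.53 ± 0.14, adjusted p = 0.0133) and Hmox1, which frees iron from heme (0.44 ± 0.13, adjusted p = 0.0241), rose, and the iron transporter gene Slc11a2 (−0.36 ± 0.12, adjusted p = 0.0482) fell. Ferritin heavy chain values were apart between the groups, whereas those of Hmox1 overlapped. Srxn1, which repairs oxidised peroxiredoxins, had 249.8, 225, 222 and 239 CPM in KO rimeporide, against 384, 248, 354 and 448 CPM in KO DMSO (log2 fold change −0.62 ± 0.12, adjusted p = 0.00396). The NRF2 genes Txnrd1 (0.30 ± 0.087, adjusted p = 0.0228) and Mgst1 (0.31 ± 0.10, adjusted p = 0.0414) rose and Gpx1 (−0.33 ± 0.091, adjusted p = 0.0182) and Pgd (−0.39 ± 0.099, adjusted p = 0.0111) fell. With the covariate Fth1 and Ftl1 were at −0.041 and −0.061. The call of Fth1 ended when replicate 3 of KO rimeporide, or replicate 4 of KO DMSO was left out. That of Ftl1 ended without replicate 3 of KO rimeporide, or replicate 1 or 4 of KO DMSO. Hmox1 lost its call without replicate 1 or 4 of KO rimeporide, or replicate 1, 3 or 4 of KO DMSO.

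Among genes of stress responses, of 27 ATF4 and serine synthesis genes the alanyl-tRNA synthetase gene Aars (−0.42 ± 0.12, adjusted p = 0.0246) and the arginine transporter gene Slc7a1 (−0.48 ± 0.13, adjusted p = 0.0145) fell. Of 16 heat shock genes Bag3 (−0.45 ± 0.11, adjusted p = 0.0112) and Hspd1 (−0.36 ± 0.092, adjusted p = 0.0116) fell. With all libraries none of 22 ER chaperone genes passed by edgeR (4 at an unadjusted p under 0.05, 0 by DESeq2 and by limma voom). Without KO DMSO replicate 2, 1 ER chaperone gene rose and 3 fell, beside 7.6% and 12.3% of all protein-coding genes. Of 19 genes, p53 and its targets, Bax (0.52 ± 0.13, adjusted p = 0.0121) and Trp53, the gene of p53 itself (0.43 ± 0.15, adjusted p = 0.0469), rose. Mdm2 (−0.30 ± 0.088, adjusted p = 0.0233) fell. Trp53 lost its call without any single KO library other than KO DMSO replicate 2, and without some WT libraries. Of 42 genes of mitosis and the cell cycle Ccne2 (0.61 ± 0.16, adjusted p = 0.0144) rose and 3 fell, Cks1b (−0.57 ± 0.12, adjusted p = 0.00498), Ccnd2 (−0.47 ± 0.12, adjusted p = 0.0138) and Plk1 (−0.62 ± 0.17, adjusted p = 0.0189), and of 39 replication genes Pcna rose (0.32 ± 0.076, adjusted p = 0.00887).

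The cytosolic ribosomal protein genes that passed in the fit of all libraries were all higher. Of 82 tested, 37 rose (45.1%) and none fell there, with rises of 0.21 to 0.73 and a list median of 0.22. Without KO DMSO replicate 2, 43 rose and 3 fell, with a median of 0.25. Across the other fits, the one with the covariate left out, 13 to 45 rose and 0 to 3 fell. The counts of this family are uncertain: the median member shared 42.6% of its end words with other genes and 29 of 82 shared at least 50%. Rpl10 had 1244, 1231, 1266 and 1061 CPM in KO rimeporide, against 612, 1080.1, 655 and 556 CPM in KO DMSO (log2 fold change 0.73 ± 0.15, adjusted p = 0.00497). Rpl22, with 19.2% of its end words shared, had 489, 530.5, 595 and 508 CPM in KO rimeporide, against 329, 433, 405 and 319 CPM in KO DMSO (log2 fold change 0.52 ± 0.099, adjusted p = 0.00377). Rpl10 overlapped only through KO DMSO replicate 2, and in both genes the range of the WT libraries included that of KO rimeporide. The list median was 0.022 with the covariate and 0.061 in WT. Of 42 translation factors 6 rose (14.3%), among them Eif5a (0.50 ± 0.11, adjusted p = 0.00591) and Eif4g1 (0.30 ± 0.092, adjusted p = 0.0326), and 2 fell, Eif1b (−0.51 ± 0.13, adjusted p = 0.0113) and Eif4ebp2 (−0.38 ± 0.12, adjusted p = 0.0342).

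Among 76 nuclear genes of oxidative phosphorylation 14 rose (18.4%) and 3 fell (3.95%), with a median of 0.085. Ndufs1, the largest subunit of complex I, had 100.4, 116, 103 and 106 CPM in KO rimeporide, against 77.1, 85.8, 77.1 and 79.8 CPM in KO DMSO (log2 fold change 0.41 ± 0.085, adjusted p = 0.00466). Atp5b, the catalytic subunit of ATP synthase, had 322, 371, 408 and 336 CPM in KO rimeporide, against 257, 292, 285 and 230.0 CPM in KO DMSO (log2 fold change 0.44 ± 0.093, adjusted p = 0.0052). Both rose without overlap, and Ndufs1 had 0.34 with the covariate. Ndufb3, another complex I subunit, went the other way with 150.4, 154, 145 and 157 CPM in KO rimeporide, against 344, 151, 250.2 and 289.6 CPM in KO DMSO (log2 fold change −0.78 ± 0.16, adjusted p = 0.00396), and KO DMSO replicate 2 lay among the rimeporide libraries. Of 13 mitochondrially encoded genes 1 rose, mt-Nd3 (0.49 ± 0.13, adjusted p = 0.0138), and 3 fell, mt-Nd4 (−0.46 ± 0.13, adjusted p = 0.0206), mt-Nd2 (−0.35 ± 0.11, adjusted p = 0.0325) and mt-Nd4l (−0.40 ± 0.12, adjusted p = 0.029). Their counts are uncertain, since the median member shared 40.7% of its end words with other genes and 6 shared at least 50%. For the 3 that fell, KO DMSO replicate 2 was closer to KO rimeporide than to the other KO DMSO libraries, but not for mt-Nd3. The list summed to 8774 CPM in that library, against 9820 to 10657 CPM in KO rimeporide. Of 35 proteasome genes 3 fell, among them the assembly factor gene Pomp (−0.76 ± 0.13, adjusted p = 0.00348). Of 32 glycolysis and HIF target genes Eno1 (0.53 ± 0.15, adjusted p = 0.0226), Gapdh (0.38 ± 0.13, adjusted p = 0.0489) and Ldha (0.28 ± 0.092, adjusted p = 0.0456) rose and Adm fell. Eno1 and Gapdh share over 50% of their end words with other genes.

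Tubulin genes that passed were lower. Of 21 tubulins, tubulin ligases and motor light chains 8 fell (38.1%) and 5 rose (23.8%). Ttl, the ligase that restores the terminal tyrosine of alpha-tubulin, had 14.1, 12.03, 12.7 and 13.5 CPM in KO rimeporide, against 36.1, 20.2, 26.2 and 35.9 CPM in KO DMSO (log2 fold change −1.19 ± 0.19, adjusted p = 0.00285). Tubb2b, a beta-tubulin, had 296, 314, 217 and 264 CPM in KO rimeporide, against 522, 394, 458 and 640.3 CPM in KO DMSO (log2 fold change −0.89 ± 0.14, adjusted p = 0.00285). Tuba1a, an alpha-tubulin, had 367, 355, 324 and 341 CPM in KO rimeporide, against 571, 445, 489.7 and 523 CPM in KO DMSO (log2 fold change −0.55 ± 0.084, adjusted p = 0.00264). The groups were apart in all 3 genes, with KO DMSO replicate 2 the lowest DMSO library in each. Tuba1a and Tubb2b had −0.31 and −0.28 with the covariate. Tuba1b (−0.47 ± 0.10, adjusted p = 0.0059), Tuba1c (−0.44 ± 0.11, adjusted p = 0.0134), Tuba4a (−0.53 ± 0.17, adjusted p = 0.0447), Tubb2a (−0.32 ± 0.11, adjusted p = 0.0458) and the dynein light chain gene Dynlt3 (−0.39 ± 0.11, adjusted p = 0.0161) fell too. Besides Dynlt1b, the copies Dynlt1a (0.62 ± 0.10, adjusted p = 0.00285), Dynlt1c (0.61 ± 0.11, adjusted p = 0.00369) and Dynlt1f (0.81 ± 0.13, adjusted p = 0.00285) and the light chain gene Dynlrb1 (0.40 ± 0.11, adjusted p = 0.0145) rose. Of 31 actin genes the profilin gene Pfn1 (0.47 ± 0.10, adjusted p = 0.00587), Arpc5 (0.26 ± 0.069, adjusted p = 0.0148) and Actb (0.24 ± 0.079, adjusted p = 0.0434) rose and Tagln2 (−0.35 ± 0.084, adjusted p = 0.00939) fell. Of 32 Rab GTPases, which steer membrane traffic, 5 fell (15.6%) and none rose, among them Rab32 (−0.50 ± 0.12, adjusted p = 0.011), a Rab of lysosome-related organelles, Rab8a (−0.38 ± 0.10, adjusted p = 0.0142) and Rab2a (−0.28 ± 0.085, adjusted p = 0.0299). Without KO DMSO replicate 2, 10 Rab genes fell and 1 rose. Across the other fits, the one with the covariate left out, 1 to 10 fell and 0 to 2 rose.

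Defining markers of microglia were present under both treatments. All 15 defining markers of microglia and macrophages were tested, and their summed level was 7059 to 8087 CPM in KO rimeporide, against 7056 to 7726 CPM in KO DMSO. Of these, Trem2 and Tyrobp rose and C1qa and Laptm5 fell. Markers of other cells were far lower and none passed in neurons (10 of 21 tested), astrocytes (12 of 16), the oligodendrocyte lineage (11 of 16), fibroblasts, endothelium and mural cells (10 of 18) or lymphocytes, granulocytes and mast cells (3 of 19). Over whole lists the sums were 163 to 239 CPM in KO rimeporide, against 161 to 251 CPM in KO DMSO, for neurons, and 84.0 to 115 CPM against 93.0 to 129 CPM for astrocytes. They were 147 to 199 CPM in KO rimeporide, against 188 to 226 CPM in KO DMSO, for the oligodendrocyte lineage, and 58.8 to 79.2 CPM against 72.9 to 94.2 CPM for fibroblast, endothelial and mural markers. Lymphocyte, granulocyte and mast cell markers summed to 10.1 to 11.1 CPM in KO rimeporide, against 8.41 to 9.76 CPM in KO DMSO, and Cd3d, Fcer1a, Ly6g and Tpsb2 had no count in any KO library. The ranges overlapped for all but this last list. At an unadjusted p under 0.05 by edgeR there were 2 oligodendrocyte and 2 fibroblast, endothelial or mural markers and 0 of the other lists; limma voom called 1 in each of those 2 lists and DESeq2 none in any.

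The same treatment of WT microglia gave no protein-coding calls (0%) by edgeR, and DESeq2 called 6 and limma voom 0. Of all 12272 genes tested by edgeR, 676 had an unadjusted p under 0.05 in WT. A gene's response in KO differed from that in WT for 2 protein-coding genes (0.0185%) by edgeR, where DESeq2 called 189, limma voom 59 and edgeR with no filter on low counts 354. With the replicate number as a block, edgeR called 434. Ncaph2, a condensin II subunit, had 41.7, 61.6, 56.7 and 48.3 CPM in KO rimeporide, against 32.4, 34.4, 37.5 and 32.6 CPM in KO DMSO, and 42.1, 37.4, 38.7 and 33.9 CPM in WT rimeporide, against 45.8, 52.4, 51.1 and 47.6 CPM in WT DMSO. Fbxo34, an F-box protein, had 44.9, 45.2, 40.9 and 40.1 CPM in KO rimeporide, against 30.9, 33.2, 30.8 and 24.6 CPM in KO DMSO, and 40.4, 35.7, 38.2 and 33.7 CPM in WT rimeporide, against 47.7, 50.7, 54.7 and 45.7 CPM in WT DMSO. Both were higher with rimeporide in KO (0.61 ± 0.12 and 0.52 ± 0.11, adjusted p = 0.00383 and 0.00553). In WT the changes were −0.37 ± 0.12 and −0.42 ± 0.11 and did not pass. The differences between the genotypes were 0.98 ± 0.17 and 0.94 ± 0.16 (adjusted p = 0.0368 each). KO DMSO replicate 2 lay within the range of the other KO DMSO libraries in Ncaph2 and just above it in Fbxo34. Neither difference passed when any 1 of 11 libraries was left out: replicates 2, 3 and 4 of KO rimeporide, replicates 1, 3 and 4 of KO DMSO, replicates 2 and 4 of WT rimeporide, and replicates 1, 2 and 3 of WT DMSO. Without KO DMSO replicate 2, 996 protein-coding genes differed in response (9.1%).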

How the data were processed

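The 16 libraries were QuantSeq 3' mRNA libraries with unique molecular identifiers, read as single 75-base ends, per the labels' protocols. The values are expected counts per gene, which the authors deposited as 1 table for the series; Salmon and the build GRCm39 are named per the submitters' processing notes, and the version and annotation, and whether duplicate molecules were removed before counting, were not given in the sources used here. Of the values, 13.7% were not whole (tolerance 1e-06), and rounding moved 0.0207% of the total. Total counts were 3666413 to 7929499 per library and counting error adds to the spread of the named genes of a few CPM.

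The rounded counts of 56980 genes were filtered with filterByExpr (minimum count 10, minimum total 15), scaled by TMM and tested with the quasi-likelihood test of edgeR 4.0.16 (R 4.3.3) over all 16 libraries, with 1 mean per group and Benjamini-Hochberg adjustment over 12272 genes. The threshold was an adjusted p of 0.05 throughout. Values are CPM of the rounded counts, over the total of the filtered genes of the library times its TMM factor. The summed levels of cell type markers are instead CPM of the deposited counts over the unscaled library total. The sign ± gives the standard error of the log2 fold change (its size over the square root of F), and all p-values are two-sided. On simulated counts with this design, the test recovered 44% of genes changed 1.5-fold and 68% of those changed 2-fold, with 9 false calls. Each simulated gene was drawn independently, without the score difference that sets KO DMSO replicates 1, 3 and 4 apart. These false calls therefore do not measure errors from differences that many genes of a library share. Alternatives were other scalings, other filters, DESeq2 1.42.0, limma voom 3.58.1, the 8 KO libraries alone, the replicate number as a block, the pseudogene score as a covariate and each library left out. Leaving out KO DMSO replicate 2 together with KO rimeporide replicate 3 was chosen after seeing the data.

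Biotypes were matched by gene ID in GENCODE M21, where 114 tested genes had none, and 16 protein-coding genes with symbols ending in -ps and digits were left out of the protein-coding counts. The named genes are Grn, the 15 largest increases and decreases called with and without KO DMSO replicate 2 (at least 5 CPM on average over the KO libraries), the largest of those that lost or gained the call without it, and leading members of each list; other called list members are named after their values were seen. Some genes that this rule names are not reported here. The libraries, lists and members were chosen with earlier results of these data known. Promoter windows are those of RefSeq (GRCm38.p6).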

Additional observations from a re-analysis of the deposited data

Results flagged for a closer look

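In 22 of 364 groups of 4 KO libraries examined for the named genes, 1 library lay far from the other 3 by Dixon's criterion (the gap to the nearest library over the range of the group), where chance flags about 1 in 20 groups. KO DMSO replicate 2 held 8 of the 22. It was high for Lrig1 (63.0 CPM), Isg15 (74.8 CPM), Rims1 (10.01 CPM), Tm9sf1 (54.6 CPM) and Dynlt1a (103 CPM), and low for Lpl (4066 CPM), Ccnd2 (54.1 CPM) and Slc11a2 (82.1 CPM). In the other KO DMSO libraries, replicate 1 was low for Clcn3 (77.5 CPM), replicate 3 was low for Mlst8 (33.3 CPM), and replicate 4 was low for Rnf13 (237 CPM) and high for Smad3 (30.2 CPM) and Srrd (4.22 CPM).

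In KO rimeporide, replicate 1 was high for Arpc5 (519 CPM) and low for Enpp4 (3.51 CPM) and Rab2a (147 CPM), and replicate 2 was low for Tm9sf1 (41.5 CPM). Replicate 3 was low for Eif4ebp2 (79.9 CPM), Rims1 (7.02 CPM) and mt-Nd4l (50.8 CPM), and replicate 4 was low for Rpl10 (1061 CPM) and high for Trim25 (226.5 CPM).

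The response to rimeporide differed between KO and WT for Ncaph2 (difference in log2 fold change 0.98) and Fbxo34 (0.94) by the edgeR interaction test (adjusted p = 0.0368 each), and all 4 KO rimeporide libraries lay above all KO DMSO libraries in both genes. The test of both genes did not hold with the pseudogene score as a covariate, where no gene differed between the genotypes.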

How the results depend on the processing

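Depth and the number of libraries limit small changes, the score cannot be separated from treatment in KO, and tags shared between genes limit all counts of their families. The number of protein-coding calls in KO stayed within 1.5 times 1257 under every scaling, filter and tool tried, with 1191 to 1438, and under the pair of libraries left out after seeing the data (1622). It was 394 to 2177 when single libraries were left out (643 to 3002 over all genes, against 1813) and 1 with the score as a covariate (1 over all genes). In WT, where the count was 0, it was 89 with no filter, 6 by DESeq2, 2 with the covariate, 9 without the pair and 0 to 40 without single libraries. Genes that differed between the genotypes, 2 in the full fit, numbered 354 with no filter, 189 by DESeq2, 59 by limma voom, 0 with the covariate, 720 without the pair and 0 to 996 without single libraries, the highest without KO DMSO replicate 2. The causes were not tested.

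With the replicate number as a block, 1709 protein-coding genes were called in KO, 7 in WT and 434 between the genotypes, and 1349 in a fit of the KO libraries alone (897 without the block there). Libraries with the same number correlated in their deviations from the KO group means by 0.10, 0.03, 0.13 and 0.13. In KO, 3 of 4 rimeporide and 3 of 4 DMSO libraries correlated best with their own number. The same correlations in WT were 0.067, 8.7e-05, 0.063 and 0.12, and WT rimeporide replicates 1, 3 and 4 correlated best with their own number. In each genotype 1 of the 4 correlations was near 0. No label names a shared culture, so the numbers were not taken as pairs, although these correlations do not exclude pairing. Whether they are pairs is not known, and the counts of calls depend on it.

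Of 154 called genes among 182 named, 129 kept their sign under every alternative. With the covariate the sign turned for Adm (0.021), Atp1b3 (0.062), Atp23 (0.18), Atp6ap2 (0.0033), Brms1l (−0.061), Cd4 (−0.22), Dcx (0.22), Eif4ebp2 (0.091), Eno1 (−0.089), Fdx2 (−0.23), Fth1 (−0.041), Ftl1 (−0.061), Gabarapl2 (0.036), Gapdh (−0.13), Gnptab (0.0018), Lpl (0.028), Mef2c (−0.059), Msr1 (0.0022), Neu1 (0.032), Pcdhga9 (−0.051), Pcdhgb4 (−0.26), Psmb7 (0.064), Rims1 (−0.12), Scpep1 (0.021), Slc11a2 (0.0012), Trem2 (−0.0038), Tyrobp (−0.046), Ugt1a6a (−0.0038), mt-Nd2 (0.090), mt-Nd4 (0.054), mt-Nd4l (0.059). Without single libraries, Cd4 ranged from −0.16 to 0.29, and it was at −0.13 without the pair; it was not called.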
